A study of Mus musculus with 24 samples.

Results

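Described here are 9 interferon response genes, Irf7, Irf9, Stat2, Ifit1, Ifit3, Isg15, Usp18, Bst2 and Ifi27, in the medial prefrontal cortex (mPFC) of mouse offspring. They were 9 of the 24972 genes listed for each sex and were picked by symbol. The set was chosen from results of these same libraries, with the difference between morphine and saline known, so that difference, with its interval and the counts of calls from the fit over all genes, is a description and not a test of the set. Bulk polyA RNA was sequenced from 24 libraries in 4 groups of 6, SAL and MO for each sex. All offspring were B6D2F1/J hybrids from C57BL/6J dams mated to DBA/2J sires, carried no engineered allele, and were taken on postnatal day 21 (P21). Dams of the MO groups were injected subcutaneously once daily with morphine, at a final dose of 10 mg/kg, from before breeding until weaning, and dams of the SAL groups with saline on the same schedule. The offspring themselves were not injected, and each group held at most 1 offspring of a litter, so males and females shared litters that the labels do not identify. Small litters had been combined soon after birth.

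Type I interferons bind a receptor at the cell surface whose kinases phosphorylate STAT proteins, STAT2 among them, and STAT2 acts with IRF9 in the complex ISGF3. ISGF3 binds the interferon-stimulated response element (ISRE), a repeat of GAAA, in the promoters of interferon-stimulated genes. IRF7, itself such a gene, switches on further interferon genes, while USP18 removes the ubiquitin-like protein ISG15 from its targets and restrains the receptor. In the brain, microglia, endothelium, astrocytes and neurons can all respond, and a low level of these transcripts is present without infection.

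Promoter sequence was available from RefSeq for 7 of the 9 genes and not for Usp18 or Ifi27. The ISRE core, searched as GAAANNGAAA on both strands of the 300 bases around each start site (250 before, 50 after), was found in promoters of 5 of these 7 genes. Over all 27025 genes with a promoter, 3.99% held it, and 3.44% of the 32851 promoters. The stretches that carry it are shown because its letters are what the promoters of those 5 of the 7 genes share. The motif is in capitals with 20 bases on each side, on the strand of the gene (GRCm38.p6 reference, C57BL/6J).
Isg15, chr4:156200855-156200916, minus strand: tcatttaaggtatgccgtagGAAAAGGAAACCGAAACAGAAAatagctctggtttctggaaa
Bst2, chr8:71537567-71537622, minus strand: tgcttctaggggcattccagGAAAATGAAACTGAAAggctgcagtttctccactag
Stat2, chr10:128270256-128270305, plus strand: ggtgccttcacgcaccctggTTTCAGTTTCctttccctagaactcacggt
Ifit3, chr19:34583353-34583436, plus strand: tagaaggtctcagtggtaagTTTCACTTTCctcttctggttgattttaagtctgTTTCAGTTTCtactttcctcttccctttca
Ifit1, chr19:34640765-34640833, plus strand: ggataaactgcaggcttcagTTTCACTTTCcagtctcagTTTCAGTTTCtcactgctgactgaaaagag

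In Isg15, 3 overlapping matches began 78, 72 and 66 bases before the start site. Bst2 held 2 overlapping matches, at 130 and 124 bases before it. In Ifit3 the 2 matches lay 156 and 122 bases upstream, in Ifit1 104 and 85, and Stat2 held 1 match 222 bases upstream. These last 3 genes carry the core in the other orientation, as its reverse complement. A longer core, GAAANNGAAACT, was present in 0.303% of genes and in 3 of the 7, Bst2, Ifit3 and Ifit1. The core of the gamma-activated site, TTCNNNGAA, was present in 9.55% of genes and in Bst2 among the 7, where it overlapped an ISRE core. Neither ISRE core was in the windows of Irf7 and Irf9, which says only that these letters are not there.

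Values are normalized counts as the authors deposited them. The step that made the most low values whole multiples of itself lay between 0.781 and 1.185 by library. It is a rough guide to the worth of 1 read, because in PFC24 only 27.2% of low values were such multiples. Sums per library were 14728966 to 15966593 normalized counts. Male and female tables were normalized separately, so levels are compared within a sex. The libraries had the neuronal marker Slc17a7 at 24986 or more and the microglial marker P2ry12 at 526 or more, as cortex has. One female MO library, PFC1, stood apart in cell markers. Its summed level of neutrophil markers was 433, against at most 56.0 in the other 11 female libraries, that of lymphocyte and plasmacytoid dendritic cell markers 87.2 against at most 22.6, and that of microglia markers 11552 against at most 8367. Its astrocyte markers (53801 against at most 37426) and endothelium markers (7877 against at most 6419) were also the highest. So were its erythroid and border-associated macrophage markers. Its interneuron markers were the lowest, at 8447 against a median of 11526 in the other 11. PFC1 was not the highest in meningeal fibroblast, choroid plexus and ependyma, or excitatory neuron markers. Female results are therefore also given without PFC1. In bulk RNA, fewer cells of a type and less RNA per cell cannot be told apart.

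The RNAs that start the pathway were at or near 0. Of 21 interferon genes, 18 were listed at 0 in all 24 libraries, among them Ifnb1, and Ifna13 and Ifnk were above 0 in 1 library each. Ifng, the type II interferon, was above 0 in 3 libraries, with a highest value of 2.09 normalized counts. Transcripts below about the worth of 1 read were not detectable at this depth.

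The 9 response genes were all above 0 in every library, and all 9 passed the filter on low values, a sum of at least 10, in both sexes. Divided by the length of the principal transcript, their order was much the same in the 4 groups. Ifi27, which encodes a small mitochondrial membrane protein, led at 256 ± 24.3 normalized counts per kb in male SAL and 273 ± 63.0 in female SAL (SD, n = 6 each). Stat2 and Ifit3 followed, at 53.2 ± 4.04 and 50.9 ± 3.81 per kb in male SAL, then Bst2 at 37.2 ± 12.6 and Irf9 at 24.7 ± 4.03. Isg15, Ifit1 and Irf7 came next, at 14.2 ± 5.21, 10.2 ± 4.06 and 6.55 ± 1.75 per kb, and Usp18 was last at 2.80 ± 1.45. The mean ± SD range of Ifi27 was clear of that of the next gene in all 4 groups, whereas the mean ± SD ranges of Stat2 and Ifit3 overlapped in all 4. Among all genes tested in males, 12.2% had a lower mean count than Usp18, 17.8% than Isg15, 19.0% than Irf7 and 49.3% than Ifi27.

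STAT2, IRF9 and IRF7 carry the signal to the nucleus. Irf7 (chr7:141262706-141266481, minus strand) had a lowest, median and highest value of 8.31, 12.05 and 17.2 normalized counts in male SAL and of 14.3, 17.2 and 21.7 in male MO. All 6 male MO libraries lay above the male SAL mean of 12.5, and 2 lay above the highest SAL library, so the groups overlapped. In females Irf7 was at 9.63, 19.3 and 20.4 in SAL and at 7.11, 16.0 and 30.9 in MO. The female MO libraries reached both below and above all SAL libraries, with PFC1 the highest. The log2 difference, MO minus SAL on the log2(normalized count + 1) scale, was 0.47 in males (SE 0.20, 95% interval 0.04 to 0.89) and -0.09 in females (95% interval -0.76 to 0.57). In females it was -0.28 without PFC1 and 0.11 without PFC5, so its sign rested on single libraries.

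**Figure D1:**
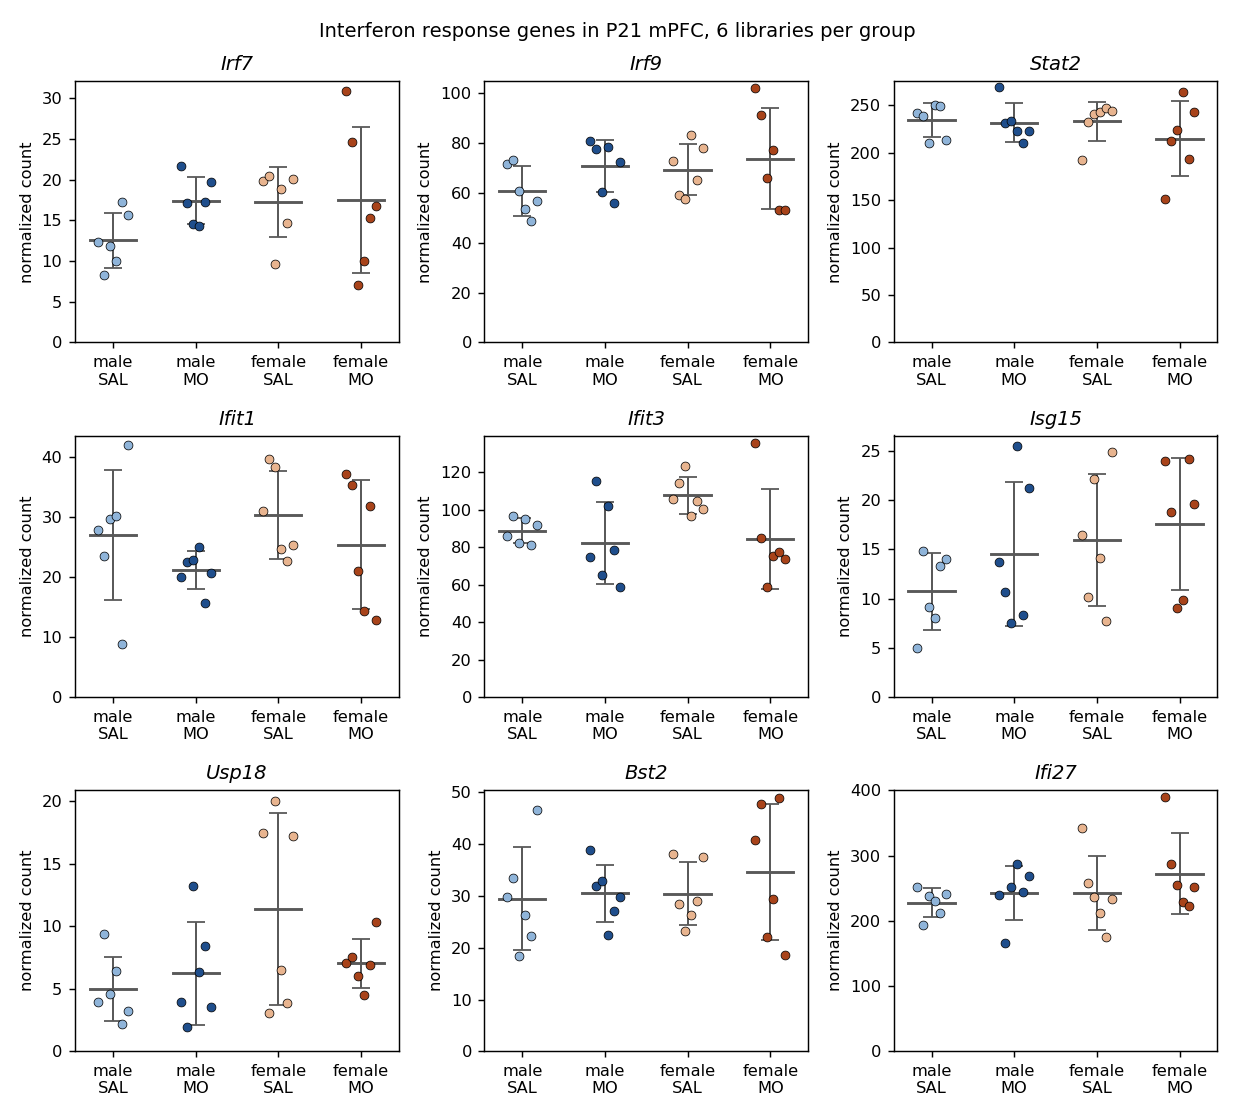
Normalized counts of the 9 genes in each library (points, n = 6 per group), with the group mean (line) and SD (bars), each axis starting at 0. Irf7 in male MO lies between 14.3 and 21.7 around a mean of 17.4, above the male SAL mean of 12.5, and Ifit3 in female MO has 5 libraries below the lowest SAL library and 1, PFC1, above the highest.

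Irf9 (chr14:55603571-55610030, plus strand) was at 48.7, 58.7 and 73.2 in male SAL and at 55.7, 74.9 and 80.8 in male MO, in the order lowest, median and highest. In males 3 MO libraries exceeded the highest SAL library, and the log2 difference was 0.22 (95% interval -0.06 to 0.50). In female SAL Irf9 was at 57.6, 68.9 and 83.1, and in female MO at 52.9, 71.6 and 102. The female MO range contained that of SAL, and the log2 difference was 0.06 with PFC1 and -0.04 without it. Stat2 (chr10:128270559-128292849, plus strand) varied least of the factors, with a coefficient of variation of 7.58% in male SAL and 8.87% in female SAL. Its log2 difference was -0.01 in males (95% interval -0.17 to 0.14) and -0.13 in females (95% interval -0.39 to 0.12, and -0.04 without PFC1).

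Ifit1, whose protein binds foreign RNA, and Ifit3 both lie on chromosome 19. Ifit3 (chr19:34583531-34588731, plus strand) was at 81.4, 89.1 and 96.7 normalized counts in male SAL, as lowest, median and highest, and at 58.9, 76.7 and 115 in male MO. In male MO, 4 libraries lay below all SAL libraries and 2 above them. In female SAL Ifit3 was at 96.9, 105 and 123, and in female MO at 59.0, 76.2 and 136. Here 5 of 6 MO libraries lay below the lowest SAL library, and PFC1 lay above the highest. The log2 difference was -0.14 in males (95% interval -0.44 to 0.16) and -0.39 in females (SE 0.16, 95% interval -0.73 to -0.05, and -0.54 without PFC1). Ifit3 shares 37.1% of its 85-base stretches with the neighboring Ifit3b, so reads may be split between them. Their 84-base promoter stretches were identical. Summed over both genes, the log2 difference in females was -0.31, and -0.46 without PFC1, from means of 162 ± 11.6 in SAL and 135 ± 42.8 in MO (SD, n = 6 each).

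Ifit1 (chr19:34640871-34650009, plus strand) was at 8.85, 28.7 and 41.9 in male SAL and at 15.7, 21.6 and 25.0 in male MO. All 6 male MO libraries were below the SAL mean of 27.0, inside a SAL range that 1 low and 1 high library set. In female SAL it was at 22.7, 28.2 and 39.7, and in female MO at 12.8, 26.4 and 37.2. Of the female MO libraries 3 lay below all SAL libraries and 3 within their range. The log2 difference of Ifit1 was -0.23 in males (95% interval -0.79 to 0.34) and -0.33 in females (95% interval -0.90 to 0.25, and -0.46 without PFC1).

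Isg15 (chr4:156199424-156200818, minus strand) was among the lower genes, at 4.97, 11.2 and 14.9 in male SAL and 7.55, 12.2 and 25.5 in male MO. Its female values were 7.74, 15.3 and 24.9 in SAL and 9.01, 19.2 and 24.2 in MO. The groups overlapped over most of their range in both sexes, and the log2 difference was 0.35 in males (95% interval -0.31 to 1.01) and 0.14 in females (95% interval -0.53 to 0.81, and 0.04 without PFC1). Usp18 (chr6:121245906-121270917, plus strand), the feedback protease of the pathway, was at 2.22, 4.27 and 9.36 in male SAL and at 1.94, 5.13 and 13.2 in male MO. In female SAL it spanned 3.06, 11.8 and 19.97, and in female MO 4.48, 6.95 and 10.3. Female SAL had 3 libraries between 17.2 and 19.97 and 3 between 3.06 and 6.50, and no female MO library reached the SAL mean of 11.3. Its log2 difference was 0.19 in males (95% interval -0.61 to 0.99) and -0.36 in females (95% interval -1.23 to 0.51, and -0.36 without PFC1), the widest intervals of the set.

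Bst2 (chr8:71534255-71537456, minus strand) encodes tetherin, which holds budding virions at the cell membrane. It was at 18.3, 28.03 and 46.6 in male SAL and 22.5, 30.9 and 38.9 in male MO, where the MO range lay inside that of SAL. In females it was at 23.3, 28.8 and 38.0 in SAL and at 18.6, 35.2 and 48.9 in MO, where 3 MO libraries lay above and 2 below the SAL range. The log2 difference was 0.09 in males (95% interval -0.33 to 0.51) and 0.11 in females (95% interval -0.40 to 0.62, and 0.04 without PFC1). Ifi27 (chr12:103434211-103440239, plus strand) was at 193, 234 and 252 in male SAL and 165, 248 and 286 in male MO, and at 176, 234 and 342 in female SAL and 222, 254 and 389 in female MO. PFC1 was again the highest library. The log2 difference of Ifi27 was 0.08 in males (95% interval -0.16 to 0.31) and 0.17 in females (95% interval -0.16 to 0.50, and 0.06 without PFC1).

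**Figure D2:**
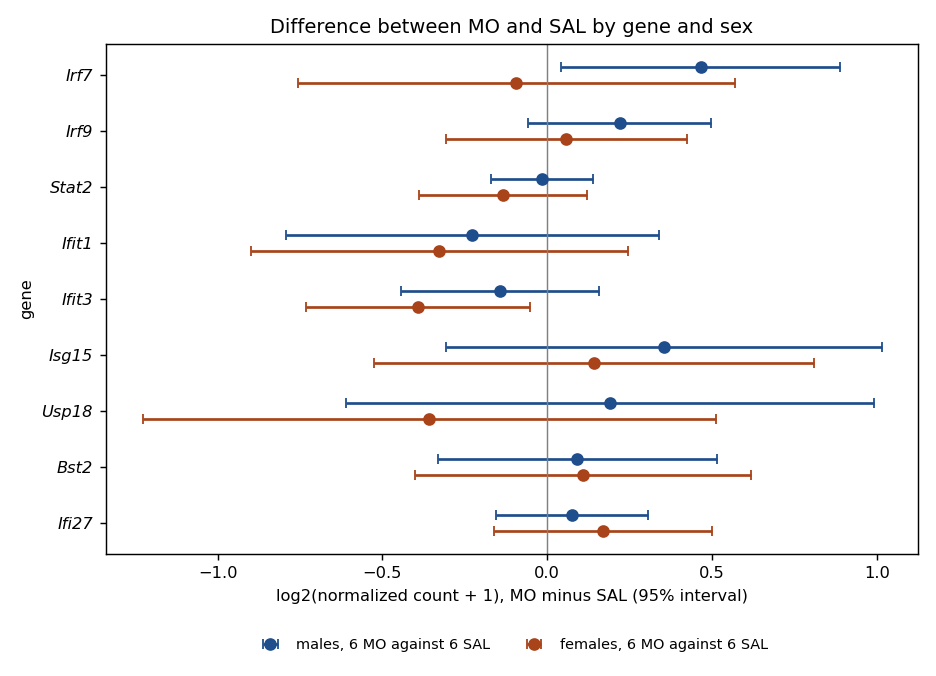
Difference between MO and SAL on the log2(normalized count + 1) scale for each gene, with the 95% interval from limma, in males (blue) and females (brown), 6 libraries a group. The intervals that leave out 0 are those of Irf7 in males, 0.04 to 0.89, and Ifit3 in females, -0.73 to -0.05.

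In males 6 of the 9 genes had a difference above 0 and 3 below, with a median of 0.09 on the log2 scale, beside -0.00 over all 16662 genes tested. In females 4 were above and 5 below, with a median of -0.09, beside 0.00 over all 16717. By limma, 0 of the 9 had an adjusted p under 0.05 in either sex, where the background was 0% of genes in males and 0% in females, and the smallest adjusted p was 1.00 in males and 0.918 in females. At an unadjusted p under 0.05, 1 of the 9 was called higher in males, Irf7, and 0 lower, beside 1.33% of all male genes higher and 1.52% lower. In females 0 of the 9 were called higher and 1 lower, Ifit3, beside 1.81% and 1.12% of all female genes. Nothing is read from these counts, because the set was chosen with this contrast known. No member separated MO from SAL without overlap in either sex, as 10 of 16662 genes did in males and 22 of 16717 in females. With so few over all genes, nothing is read from there being none among 9.

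Irf7 in males was no longer past the unadjusted threshold without any one of the libraries PFC10, PFC12, PFC14, PFC16 or PFC19, nor with a term for columns marked combined. Its log2 difference stayed between 0.37 and 0.56 whichever male library was left out. That of Ifit3 in females stayed between -0.54 and -0.30, and it was no longer past that threshold without PFC5, PFC6 or PFC23.

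Whether the MO effect differed between the sexes was examined as a difference of differences, female minus male. It was -0.56 for Irf7 on the log2 scale (95% interval -1.33 to 0.21), -0.25 for Ifit3 (95% interval -0.70 to 0.21) and -0.55 for Usp18 (95% interval -1.74 to 0.64). For the other 6 genes it lay between -0.21 for Isg15 and 0.09 for Ifi27. All 9 intervals contained 0, and by limma 0 of the 9 had an adjusted p under 0.05, where the background was 0% of 16502 genes, nor an unadjusted p under 0.05, where it was 2.01%. Without PFC1 the difference of differences was -0.75 for Irf7 (95% interval -1.46 to -0.03), -0.40 for Ifit3 (95% interval -0.78 to -0.01) and -0.56 for Usp18 (95% interval -1.79 to 0.68). Those of the other 6 genes then lay between -0.32 for Isg15 and -0.01 for Ifi27. Without that library 2 of the 9 genes, Irf7 and Ifit3, were past an unadjusted p under 0.05, beside 1.78% of 16430 genes, and 0 past an adjusted p of 0.05 in limma. Whether the intervals of Irf7 and Ifit3 contained 0 thus depended on PFC1. It was the only library left out for these differences by gene, so dependence on other libraries was not examined. No gene passed an adjusted p of 0.05 in limma with or without PFC1, so no sex difference is shown. Nothing is read from the 2 calls, because they rest on the contrast with which the set was chosen.

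The rest of the pathway was covered by 167 further genes in 8 lists, with the 9 left out. In males 138 were tested, 73 above 0 and 65 below, with a median log2 difference of 0.01. In females 139 were tested, 81 above and 58 below, with a median of 0.04. None passed an adjusted p of 0.05. At an unadjusted p under 0.05 there were 1 higher and 1 lower in males and 0 higher and 1 lower in females. These calls were 1.45% of the list genes tested in males and 0.719% in females. Of all genes, 1.33% were called higher and 1.52% lower in males, and 1.81% and 1.12% in females. Without PFC1 there were 0 higher and 5 lower in females, 3.65% of the 137 then tested, beside 1.01% of all female genes lower. By role, 0 of 9 receptor and kinase genes and 0 of 9 STAT and IRF factors passed the unadjusted threshold in either sex. The same held for 0 of 22 genes of nucleic acid sensing and 0 of 27 interferon gamma targets. It held too for 0 of 5 genes of ISG15 conjugation and 0 of 12 genes listed as negative regulators. Some genes stand in more than 1 list, such as the receptor gene Ifnlr1, listed also among the negative regulators. All 3 genes past the unadjusted threshold were interferon-stimulated targets, the largest list. They were 3.39% of 59 tested in males and 1.67% of 60 in females. Over all genes 475 of 16662 in males and 490 of 16717 in females were past it. Nothing is read from these counts by role. The 5 without PFC1, named after their values were seen, were Ifi207, Slfn8, Oasl2, the GTPase gene Iigp1 and the peptide transporter gene Tap1, with log2 differences from -1.37 for Ifi207 to -0.40 for Tap1, and by limma all 5 had an adjusted p of 1.00.

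Rsad2, which encodes the antiviral enzyme viperin, was at 21.4 ± 10.9 normalized counts in male SAL and 30.3 ± 5.48 in male MO (SD, n = 6 each). Its log2 difference was 0.59 in males (95% interval 0.07 to 1.11) and 0.52 in females. All 6 male MO values exceeded the male SAL mean, and all 6 lay inside the male SAL range of 12.9 to 39.2. Without PFC1, which was at 69.5 against at most 35.0 in the other female MO libraries, the female difference of Rsad2 was 0.28. Slfn8, of the Schlafen family, was at 21.5 ± 2.44 in male SAL and 16.1 ± 4.04 in male MO. Its log2 difference was -0.43 in males (95% interval -0.85 to -0.02), with 5 of 6 MO libraries below the lowest SAL library, and -0.58 in females, or -0.76 without PFC1. Ifi207 was at 3.48 ± 1.199 in female SAL and 1.77 ± 2.20 in female MO, where 3 libraries were at 0, a log2 difference of -1.06, or -1.37 without PFC1. A 2-sided exact permutation test of each gives p = 0.0628 for Rsad2, 0.00649 for Slfn8 and 0.0866 for Ifi207, unadjusted for the 138 or 139 genes from which they were picked. The 3 were picked by limma on these same libraries, so the permutation test gives them no separate support. With limma's adjusted p over all genes, the 3 were at 1.00, 1.00 and 0.918.

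**Figure D3:**
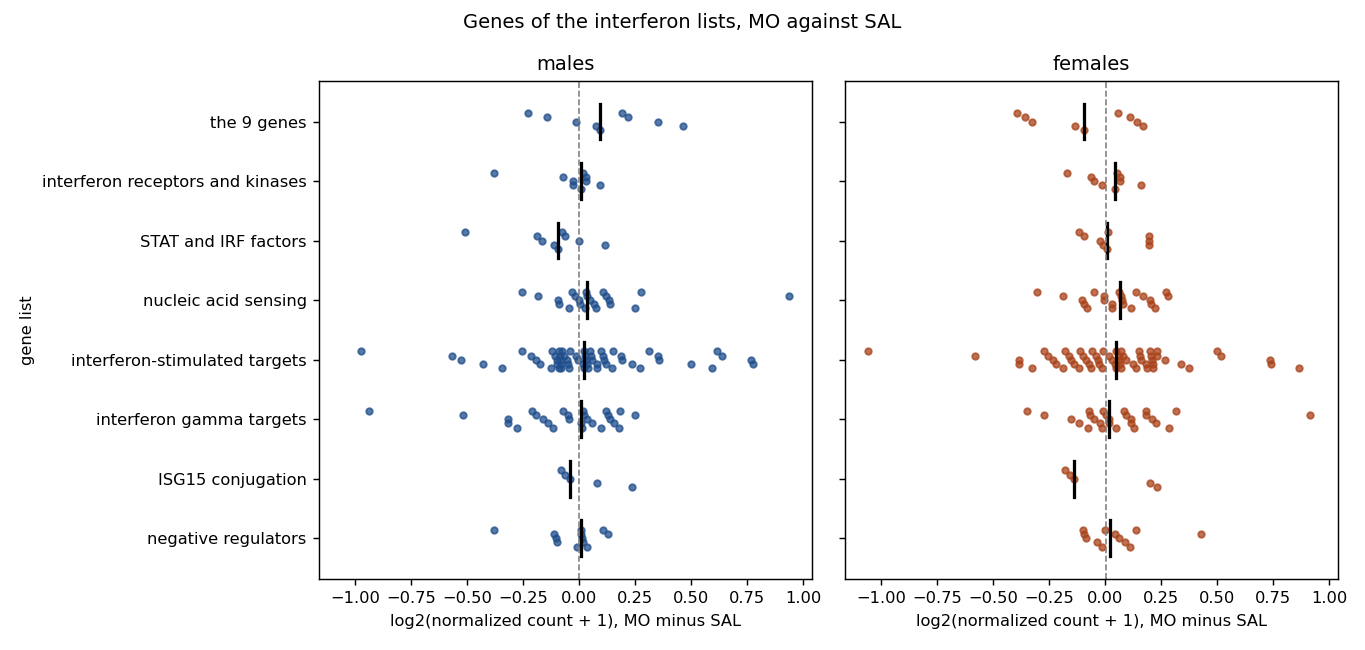
Difference between MO and SAL on the log2(normalized count + 1) scale for the 9 genes and for the genes tested in each of 7 interferon lists (points), males left and females right, with the list median (black line) and the median of all genes (dashed line). List medians lie near 0, between -0.10 for STAT and IRF factors and 0.03 for nucleic acid sensing among the 7 lists in males and between -0.14 for ISG15 conjugation and 0.07 for nucleic acid sensing in females.

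Whether the 9 genes moved together from library to library was described with values centred on the group mean. Over the 24 libraries, which share litters across the sexes and a depth that sets the noise of the low genes, 25 of 36 pairs had a Pearson's r above 0, with a median of 0.19. The highest was 0.51, between Ifit1 and Bst2, and it was the only pair above 0.5. Stat2 had a negative r with all 8 others, down to -0.60 with Ifi27. Without PFC1 its r was -0.42 with Ifi27 and 0.15 with Irf9, and in males alone it was above 0 with Irf7 (0.10), Irf9 (0.24) and Bst2 (0.21). The median r was -0.01 in males and 0.39 in females, and 0.11 over all libraries without PFC1. A median in females without PFC1 was not computed. Centring left in any difference between columns marked combined and the others, and its part in these r was not tested. The values of r are weak, and no shared program of the 9 genes is read from them.

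**Figure D4:**
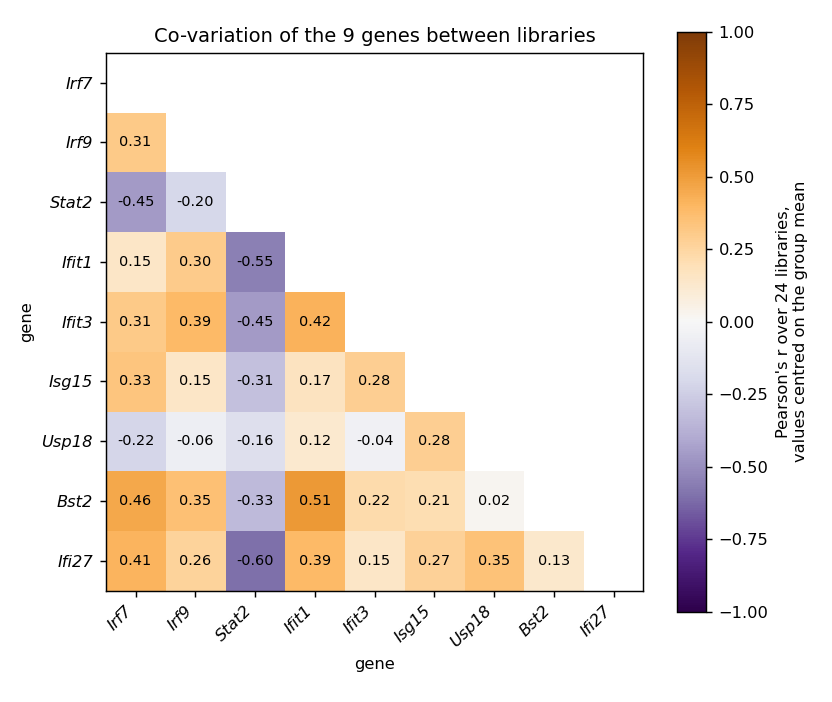
Pearson's r between each pair of the 9 genes over 24 libraries, with log2 values centred on the group mean. The row of Stat2 and its column are negative throughout, down to -0.60 with Ifi27, and the highest value is 0.51 between Ifit1 and Bst2.

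By library, PFC1 had the highest mean over the 9 genes, 0.42 above its group on the log2 scale with 8 of 9 genes above the group mean. PFC3, also female MO, had 9 of 9 above it and a mean of 0.28. PFC5, of the same group, was the lowest at -0.36 with 1 of 9 above, and PFC22 of female SAL was at -0.33 with 1 of 9 above. Means of the male libraries lay between -0.23 and 0.20.

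**Figure D5:**
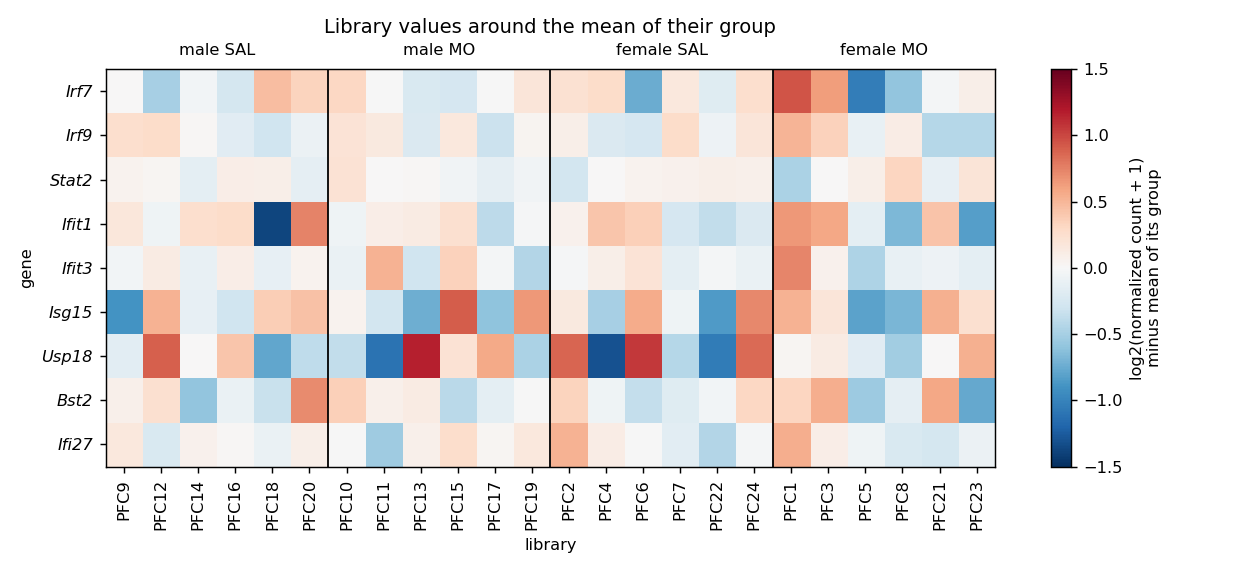
Log2 values of the 9 genes (rows) in the 24 libraries (columns), each as the difference from the mean of its group, red above and blue below. PFC1 and PFC3 of female MO are above their group in 8 and 9 genes, and PFC5 and PFC22 are above theirs in 1.

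Out of 13903 genes whose mean was 10 or more in both sexes, the 8 most like Irf7 by Pearson's r over the 24 group-centred libraries were Pim3 (0.74), Gatad2a (0.73), Hes1 (0.72), Dbndd2 (0.71), Tinagl1 (0.71), Klf15 (0.70), Gstt1 (0.70) and Slc6a9 (0.70). None of the 8 is in an interferon list. Genes of those lists were only 0.755% of the genes ranked, so nothing is read from their absence among 8. Of the list genes, 3 were among the first 100. Without PFC1 and PFC5, the libraries farthest from the median of Irf7, r was 0.57 for Pim3 and between 0.36 for Slc6a9 and 0.66 for Tinagl1. Bst2 stood nearest to Irf7 among the other members, at rank 588 with r = 0.46. Of 105 other interferon genes ranked, 74 had an r above 0, with a median of 0.17, beside -0.02 over all genes.

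Markers of other cells moved with some members. The summed microglia markers, 12 of 12 above 0 in every library, spanned 5081 to 6912 normalized counts in male SAL, 5140 to 7808 in male MO, 4411 to 8367 in female SAL and 6102 to 11552 in female MO. Over the 24 centred libraries the r of Ifi27 with them was 0.68 (0.57 without PFC1) and that of Ifit1 was 0.58 (0.52 without PFC1). For Irf7 it was 0.21 and, without PFC1, -0.09. Irf9 had an r of 0.64 with endothelium markers, and 0.51 without PFC1.

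Ifit3 had an r of 0.63 with endothelium markers, 0.62 with astrocyte, 0.59 with border-associated macrophage and 0.53 with microglia markers. Without PFC1 these were 0.40, 0.29, 0.46 and 0.28. Stat2 had an r of 0.66 with interneuron markers, and 0.33 without PFC1. For Irf7 the r with erythroid markers was -0.34, and -0.62 without PFC1. Stat2 had an r of -0.59 with lymphocyte and plasmacytoid dendritic cell markers and of -0.52 with microglia markers. Without PFC1 these were -0.23 and -0.24. Ifi27 had an r of -0.37 with meningeal fibroblast markers, and -0.68 without PFC1. The pairs named were picked from the 9 genes against 11 marker lists after their values were seen, and none was tested. Centring on the group mean left in any difference between columns marked combined and the others. In female SAL, microglia markers summed to at least 7113 in combined columns and at most 5511 in the others. In female MO these sums overlapped. Astrocyte markers were at least 28861 against at most 26517 in female SAL, and at least 29138 against at most 27340 in female MO. The part of this split in the r was not tested.

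Summed erythroid markers had a higher median in MO than in SAL in both sexes, with overlapping ranges. The sums had a lowest, median and highest of 4218, 5854 and 12081 in male SAL and 5524, 10303 and 13089 in male MO, and of 2833, 6981 and 10595 in female SAL and 4619, 10623 and 18885 in female MO. Of the 7 erythroid genes, 4 were above 0 in every SAL library of each sex and 5 in every MO library. Neutrophil markers also had the higher median in MO, at 3.43, 7.49 and 45.6 in male SAL, 8.50, 21.8 and 52.8 in male MO, 5.06, 15.05 and 22.1 in female SAL and 9.86, 37.4 and 433 in female MO. S100a8, which defines them, was at 0 in 2 male SAL libraries and reached 95.1 in female MO. PFC1 set the highest female MO sum of both lists. Without it the female MO erythroid sums were 4619, 6440, 10175, 11070 and 17553. The neutrophil sums were then 9.86, 20.8, 25.0, 49.8 and 56.0. The part of these cell types in the differences above was not tested.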

How the data were processed

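The authors made directional polyA libraries from 24 P21 mPFC samples, and their processing notes name STAR, Salmon, DESeq and the build mm10. They deposited 1 table per sex of a signal, normalized counts that are not whole. Between 27.2% and 81.7% of low values per library were whole multiples (tolerance 0.02) of its best-fitting step, so reads were not recovered and tests made for raw counts were not used. Precision at low values is therefore unknown beyond the spread between libraries. Columns of no sample numbered 0.

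Groups came from the labels. Each library is 1 offspring. Values were taken as log2(value + 1) for genes with a sum of at least 10 within a sex, and MO was compared with SAL per sex with limma 3.58.1 in R 4.3.3 (empirical Bayes with trend, Benjamini-Hochberg over all genes tested). The sex difference was an interaction term over both tables. The fit was run on simulated whole counts with changes larger than those of the 9 genes, so that run does not bear on the differences reported here. Members, lists and rules were chosen with earlier results of these data known. Named genes were the 9 members, list genes at an unadjusted p under 0.05, and the 8 genes most like Irf7. Per-kb levels used the principal transcript of GENCODE on GRCm38, the assembly of mm10, and the coordinates printed for genes come from it. Shared sequence was the share of a gene's 85-base transcript stretches found in other genes. Promoters came from RefSeq. Alternatives were other pseudocounts (0.5, 5), no filter, a mean of at least 10, array weights, a term for columns marked combined (1 male SAL, 2 male MO, 4 female SAL, 4 female MO; what was combined is not stated), scaling to Gapdh and Ppia or the median ratio, a ratio of group means, a longer motif, and leaving out each library. Summing Ifit3 with Ifit3b, and leaving PFC1 out of the co-variation and the sex difference, were added after seeing the data. Plots used matplotlib 3.10.9 (Python 3.11.15). A gene of the pathway is not reported here.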

Additional observations from a re-analysis of the deposited data

Results flagged for a closer look

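Of 36 groups of 6 libraries (9 genes in 4 groups), 2 had a library far from the rest by Dixon's criterion on the log2(normalized count + 1) scale, and chance alone gives about 1 in 20. Stat2 in female SAL had PFC2 at 192 normalized counts, with a gap to the next library of 0.756 of the range on the log2 scale and 0.732 on the counts. Ifi27 in male MO had PFC11 at 165, with a gap of 0.669 of the range on the log2 scale and 0.607 on the counts, where the gap is under the critical value.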

How the results depend on the processing

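No paired analysis was possible because each library carries its own number and the groups share none. The count of genes past an adjusted p of 0.05 in limma was 0 in males, in females and for the difference between the sexes under all alternatives run. The median difference of the 9 genes ranged from 0.03 to 0.18 in males and from -0.14 to 0.08 in females when each library was left out. Members at an unadjusted p under 0.05 numbered 0 to 2 in males and 0 to 1 in females over those fits. The 2 in males came without PFC11, PFC17 or PFC18. The combined term gave 0 in males, and scaling to Gapdh and Ppia gave 0 in females, where it moved the median of all genes by 0.09. Other interferon genes at that threshold numbered 0 to 4 higher and 0 to 3 lower in males, and 0 to 4 higher and 0 to 5 lower in females, when each library was left out, with 5 lower without PFC1. In males a pseudocount of 5 gave 2 lower, and no filter or array weights gave 2 higher. In females a pseudocount of 5 gave 1 higher and 0 lower, a mean of at least 10 gave 0 lower, array weights 4 lower, the combined term 3 higher and 2 lower, and scaling to Gapdh and Ppia 4 higher and 0 lower. Calls over all genes at that threshold moved too. In females they went from 490 in the main fit to 375 without PFC1 and 842 without PFC8. They numbered 827 without PFC21, the fit with 4 interferon genes higher, and 670 with scaling to Gapdh and Ppia. In males they went from 475 in the main fit to 392 without PFC13 and 685 without PFC11. The cause of these moves was not tested. Among members the sign turned with array weights for Stat2 in males and for Irf9, Isg15 and Bst2 in females, and with the ratio of group means for Irf7 in females. When each library was left out it turned for Irf7 in females (0.11 without PFC5, 0.03 without PFC8), Irf9 in females (-0.04 without PFC1, -0.01 without PFC3), Stat2 in males (without PFC16, PFC17 or PFC18, at most 0.01), Usp18 in males (-0.04 without PFC13), Bst2 in males (-0.03 without PFC14) and females (-0.01 without PFC21), and Isg15 in females (-0.03 without PFC22). The longer motif was in 3 promoters in place of 5, and the median r between members was 0.11 without PFC1.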
